A study of Mus musculus with 3 samples.

Results

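Spen carried 37 of the 19301 predicted m6A sites (0.192%) in the deposited list for the mouse macrophage cell line RAW264.7. The sites were chosen by position: they lie inside the Spen gene span of GENCODE M21 on the same strand. The gene itself was chosen by its large number of sites, so that number, and any share that rises with it, is a description and was not tested. The span is 70708 nt on the minus strand of chromosome 4 (GRCm38, chr4:141467890-141538597), and no other annotated gene on that strand overlaps it. The list comes from miCLIP2 of poly(A)+ RNA of untreated cells, profiled in 3 replicates of 1 condition. No agent, genotype or time was varied. In miCLIP2, UV light crosslinks an antibody against m6A to fragmented RNA, and the crosslinked base is then read from where reverse transcription stops. The machine learning classifier m6Aboost scored the peaks at adenosines, and sites with a score above 0.5 were deposited as a single list for all replicates. The score tells how sure the classifier is, and says nothing of the fraction of transcripts methylated. Neither read counts nor separate replicate columns are in the list. The precision of a single site is therefore unknown, and no test over replicates could be made. An adenosine outside the list is therefore only "not listed": it had no reproducible peak or a score that was too low, which also depends on coverage.

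Spen (also SHARP or MINT) is a very large nuclear protein that silences transcription. Its amino-terminal end holds RNA recognition motifs, with which it binds Xist RNA at the start of X-chromosome silencing, and its carboxy-terminal end holds the SPOC domain, which recruits a corepressor complex with Ncor1 and the histone deacetylase Hdac3. With Rbpj, the DNA-binding factor of the Notch pathway, it represses Notch target genes. Its relatives Rbm15 and Rbm15b have the same domain layout and guide the Mettl3/Mettl14 methyltransferase, the m6A writer, to RNA. The writer modifies adenosines in the DRACH consensus (D is A, G or T; R is A or G; H is A, C or T). In mRNA, m6A is known to be frequent in long internal exons and near stop codons, and rare close to exon junctions.

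Of the 37 sites, 34 lay on exons of the Spen transcript with the longest coding sequence (CDS) and 3 lay in its second intron. This transcript (Spen-202) has 16 exons and 12299 nt, with a 5′ UTR of 351 nt, a CDS of 10932 nt with its stop codon (3643 amino acid codons) and a 3′ UTR of 1016 nt. The CDS held 26 sites, the 3′ UTR 8 and the 5′ UTR 0. All 34 exonic sites were also exonic in the only other coding Spen transcript. The sites below show the range of contexts and stand for the sections described further on: the highest score (exon 2), the last site before a long empty stretch (codon 177 in exon 3 and codon 2629 in exon 12), the highest scores of exon 12, and those of the 3′ UTR. Each is the RNA strand written as DNA from GRCm38, 21 nt, 5′ to 3′ on the minus strand, with the 5 bases around the listed adenosine in capitals.
Exon 2, codon 83, chr4:141522219-141522239, score 0.935: tgagccagGAACTattccgag
Exon 3, codon 177, chr4:141517184-141517204, score 0.66: tcgagagcGGACTttacaaca
Exon 12, codon 976, chr4:141478379-141478399, score 0.828: ggagggcaGGACTaagctccg
Exon 12, codon 1081, chr4:141478063-141478083, score 0.843: agccccaaAGACTgccaggat
Exon 12, codon 2246, chr4:141474568-141474588, score 0.863: gagccagaGAACTtctccgct
Exon 12, codon 2629, chr4:141473419-141473439, score 0.836: gacctggaGAACTcgcagaag
3′ UTR, 400 nt past the stop codon, chr4:141468498-141468518, score 0.863: cacgccgtGGACTctcgtgca
3′ UTR, 448 nt past the stop codon, chr4:141468450-141468470, score 0.842: gggtcaagGAACAtttcagtg

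At the motif level, 34 of the 37 sites sat at DRACH (91.9%, 95% Wilson interval 78.7–97.2%). The 3 others had the same pentamer, GGACG, which differs from DRACH in its last base alone. They are shown because they are all the exceptions, and their scores all lay below the lower quartile of the Spen sites, 0.627.
Exon 2, codon 127, chr4:141522085-141522105, score 0.613: cacgagaaGGACGctatgagc
Exon 12, codon 1529, chr4:141476719-141476739, score 0.508: gataaaaaGGACGagcgcagg
Intron 2, 780 nt past the 5′ splice site, chr4:141521282-141521302, score 0.556: ttagcttcGGACGgtccgatc
The model reads the bases around the adenosine, the transcript region and the strength of the signal, so the share of sites at DRACH partly reflects the model. The same holds for the other shares by motif and region.

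The 37 Spen sites had a median score of 0.715, with an SD of 0.109 over sites and a range of 0.508 to 0.935. The quartiles were 0.627 and 0.820, close to those of the whole list (0.627 and 0.832, median 0.734). There were 23 Spen sites with a score of at least 0.7 and 12 of at least 0.8, against 58.1% and 33.6% of the list. Only 1 Spen site reached 0.9, where the list has 8.77% of its sites. That site is the GAACT of codon 83 in exon 2. By section, the median score was 0.680 in exons 2 and 3 (n = 5), 0.714 in exon 12 (n = 21) and 0.773 in the 3′ UTR (n = 8). The ranges of these sections overlapped, at 0.613–0.935, 0.508–0.863 and 0.531–0.863.

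**Figure D1:**
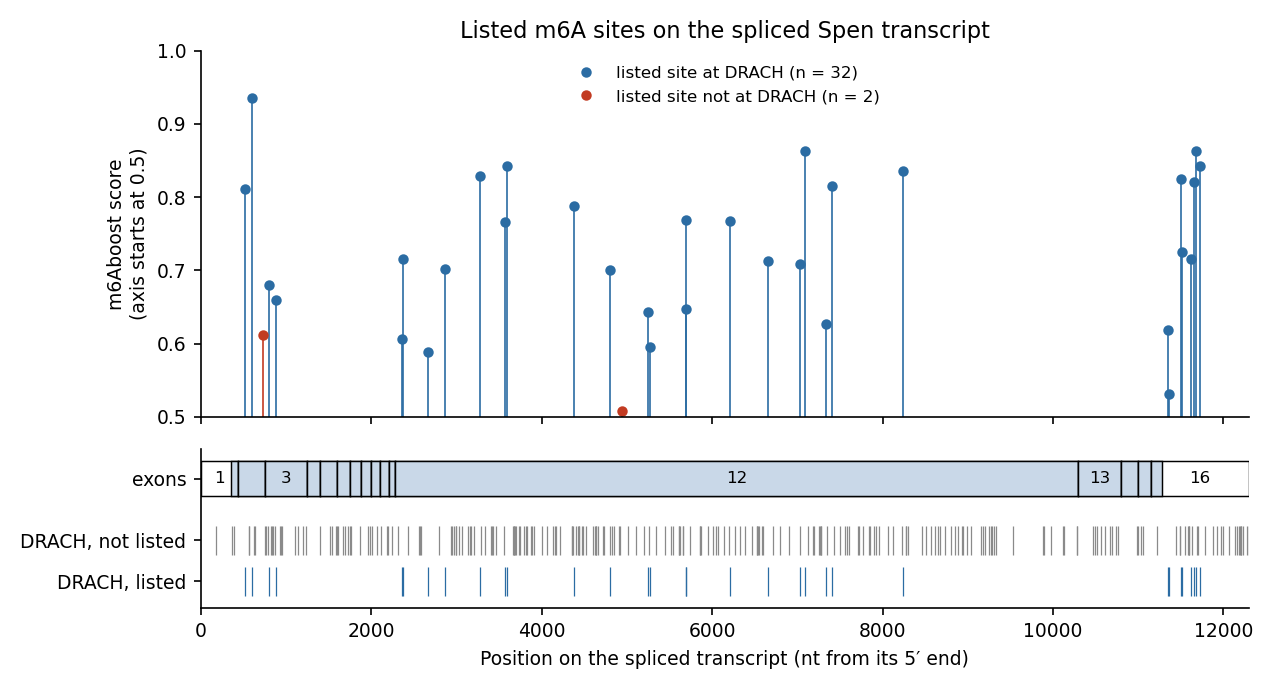
Upper panel, m6Aboost score of each of the 34 exonic Spen sites against its position on the spliced transcript in nt; the score axis starts at 0.5, the lowest score deposited. Lower panels, the exons (coding parts shaded, the wider ones numbered) and all 271 DRACH adenosines, split into 239 that are not listed and 32 that are. Sites fill exons 2 and 3, the first 5961 nt of exon 12 and the start of the 3′ UTR, and none lies between positions 8237 and 11352.

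The exonic sites fell into 3 sections of the transcript, with empty stretches between them. Exon 2 (321 nt) held 3 sites and exon 3 (483 nt) held 2, between codons 55 and 177 at the amino-terminal end. Exons 4 to 11 held 0. Exon 12 held 21 sites, from codon 670 to codon 2629. Exons 13 to 15 held 0 again, and exon 16 held 8 sites, all in its 3′ UTR part. With the transcript cut into 3 parts of equal length, 11 of 91, 12 of 98 and 9 of 82 DRACH adenosines were listed (12.1%, 12.2% and 11%), with overlapping Wilson intervals (6.89–20.4%, 7.15–20.2% and 5.88–19.6%).

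Of all exonic DRACH adenosines, 32 of the 271 in Spen were listed (11.8%, 95% Wilson interval 8.49–16.2%). Wilson intervals here cover counting error alone, because sites of a transcript are not independent samples. Over all 4871 coding genes with at least 1 site, 4.72% of exonic DRACH adenosines were listed. These genes are 22.3% of 21866 coding genes. Since Spen was picked for its many sites, the 88 coding genes with 15 or more sites, Spen among them, are the nearer comparison, and there 12.2% were listed. The share of Spen lay close to this value, so it is no result about Spen beyond its many sites.

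Exon 12 is a long internal exon, the kind in which m6A is known to be frequent. It is 8020 nt long (chr4:141471370-141479389), makes up 65.2% of the transcript and encodes codons 642 to 3315. It held 21 of the 34 exonic sites (61.8%, Wilson interval 45.0–76.1%), which is about its part of the length and of the DRACH adenosines (66.1%). Of its 179 DRACH adenosines, 20 were listed (11.2%, Wilson interval 7.35–16.6%). Across coding exons of at least 3000 nt that are not the last exon, 5.96% of CDS DRACH adenosines were listed, and 12.8% in genes with 15 or more sites. Among 62 such exons in genes with a site, 2 were longer than exon 12 and 15 had a higher share of listed adenosines, the median share being 3.28%.

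Within exon 12 the sites left the 3′ end empty. In consecutive windows of 1000 nt from its 5′ end there were 4, 3, 5, 3, 3, 3, 0 and 0 sites, at 21, 29, 30, 23, 22, 22, 21 and 9 DRACH adenosines. The first 6 windows were alike, and the seventh was empty although it had as many DRACH adenosines as the first. Up to the last site, 20 of 146 DRACH adenosines were listed (13.7%, Wilson interval 9.05–20.2%). In the 2059 nt after it, 0 of 33 were, which allows a share of up to 9.09% (3 counts of 33). This border was set at the last site itself, so the 2 shares describe the exon and do not test it.

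The empty end of exon 12 opened the longest stretch of Spen without a site. It measured 3114 nt, from codon 2629 over exons 13 to 15 to a position 71 nt past the stop codon. It held 47 DRACH adenosines, none of them listed. In genes with 15 or more sites, 12% of CDS DRACH adenosines were listed. The stretch was picked as the longest between 2 listed sites, so its 0 is a description and not a test. A limit of 6.38% (3 counts of 47) would hold only for a stretch set beforehand. Of the 47, 37 were at least 100 nt from a junction. By the last base of the pentamer, 20 ended in C, 13 in A and 14 in T, with 1 GGACT, 4 AGACT, 3 GGACA and 0 GAACT. The CDS in this stretch encodes the carboxy-terminal end with the SPOC domain. Among the 88 genes with 15 or more sites, 5 had a longer empty stretch between 2 sites, among them Rnf213, Arid1a, Nfam1 and Itga4, and the median was 1086 nt. By the DRACH adenosines within the longest stretch, 14 of the 88 genes had more than the 47 of Spen, and the median was 19. The last CDS site of Spen lay 3044 nt before the stop codon. Among 34 genes with at least 15 CDS sites, 1 gene, the cytoskeletal linker Macf1, had its last CDS site farther from the stop codon, and the median was 274 nt.

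The next longest empty stretch, 1479 nt, ran from codon 177 in exon 3 to codon 670 in exon 12 and took in all of exons 4 to 11. These 8 exons are 69 to 201 nt long, 1038 nt in all. They held 20 DRACH adenosines, and each lay under 100 nt from a junction. None was listed, which allows a share of up to 15%. Under 100 nt from a junction, 1.43% were listed in all coding genes with a site and 2.45% in those with 15 or more. Both shares lie below that limit, so a lack of sites among 20 such adenosines cannot be told from them. As no DRACH adenosine of these exons lies farther away, exon length and junction distance cannot be told apart here, and neither was tested.

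Close to junctions in exons 2, 3 and 12, Spen did have sites. Of the 46 DRACH adenosines under 100 nt from a junction in the whole transcript, those of exons 4 to 11 included, 4 were listed (8.70%, Wilson interval 3.43–20.3%), against 1.43% in all coding genes with a site and 2.45% in those with 15 or more. Both values lie below the interval, although the Spen share rests on 4 sites. At 100 nt or more, 28 of 225 were listed (12.4%, Wilson interval 8.75–17.4%), against 6.99% and 16.3%. The remaining site near a junction was the GGACG of codon 127, 23 nt from the end of exon 2. The other 4 were GGACA 80 nt into exon 2, GGACA 45 nt into exon 3 and 2 GGACT, 83 and 95 nt into exon 12. Their scores were 0.811, 0.680, 0.606 and 0.715, so 2 of the 4 scored below 0.7. With a limit of 50 nt, 2 of the 34 sites (5.88%) were near a junction, the GGACG of codon 127 and the GGACA 45 nt into exon 3. The share of DRACH adenosines listed was not computed at that limit.

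In the 3′ UTR, 8 of 33 DRACH adenosines were listed (24.2%, Wilson interval 12.8–41.0%). In all coding genes with a site this share was 5.08%, and in those with 15 or more it was 13.4%, inside the interval. In the CDS, 24 of 237 were listed (10.1%, Wilson interval 6.90–14.6%), against 4.65% and 12%. The 8 sites of the 3′ UTR lay between 71 and 448 nt past the stop codon. In that section 8 of 18 DRACH adenosines were listed (44.4%, Wilson interval 24.6–66.3%). In the remaining 570 nt, 0 of 15 were, which allows a share of up to 20%. Again the border is the last site, and the shares are descriptions. Within 200 nt of the stop codon Spen has 4 DRACH adenosines, of which 2 were listed, against 13.2% in all coding genes with a site and 25.3% in those with 15 or more. With 4 adenosines no comparison could be made.

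**Figure D2:**
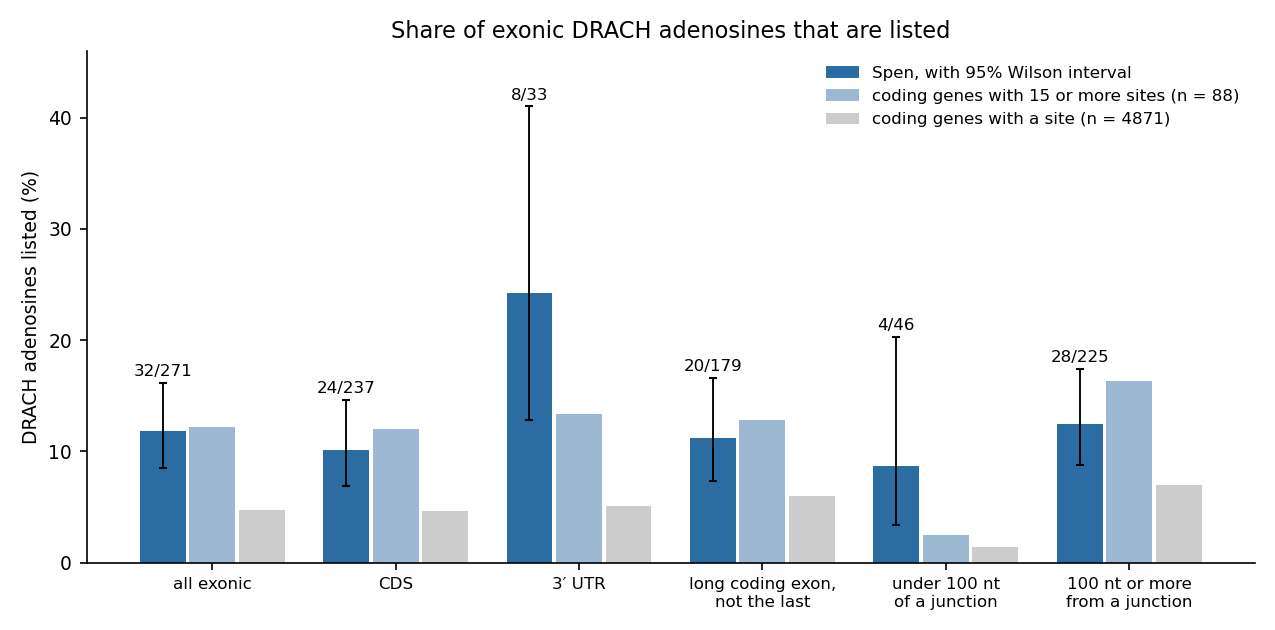
Share in percent of exonic DRACH adenosines that are listed, for Spen (dark bars, with 95% Wilson intervals and the counts above), for the 88 coding genes with 15 or more sites and for the 4871 coding genes with a site. The Spen interval holds the value of the genes with 15 or more sites in each set except within 100 nt of a junction, where Spen has 8.70% against 2.45%. That Spen share rests on 4 sites.

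The same motif a few bases apart could be listed or not. A GGACT 400 nt past the stop codon was listed with the highest score of the 3′ UTR, 0.863. The GGACT copies 13 and 20 nt downstream of it were not. The sequences are shown to let this run of copies be read, and the listed adenosine is the centre of the first.
Listed GGACT at position 11681, chr4:141468498-141468518, score 0.863: cacgccgtGGACTctcgtgca
Unlisted GGACT at position 11694, chr4:141468485-141468505, not listed: ctcgtgcaGGACTtgggactc
Unlisted GGACT at position 11701, chr4:141468478-141468498, not listed: aggacttgGGACTcgtgctga
Their windows overlap, and they share the same exon, region and distance to the nearest junction within 20 nt. In all, 9 GGACT and 5 GAACT adenosines of the Spen exons were not listed. Of these, 4 were within 30 nt of a listed site. They were those just shown, 1 in exon 2 and 1 in exon 12, lying 23 and 30 nt away.

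The listed share differed between pentamers. It was 40.0% for GGACT (6 of 15, Wilson interval 19.8–64.3%; 17.4% in all coding genes with a site) and 44.4% for GAACT (4 of 9, Wilson interval 18.9–73.3%; 11.9%). The share was 30.0% for AGACT (6 of 20, Wilson interval 14.6–51.9%; 10.5%) and 30.4% for GGACA (7 of 23, Wilson interval 15.6–50.9%; 9.35%). These 4 pentamers made up 67 DRACH adenosines and 23 of the 32 listed ones. In genes with 15 or more sites the shares were 36.8% for GGACT, 29.6% for GAACT, 24.8% for AGACT and 22.5% for GGACA, all inside the Spen intervals. The order of the pentamers within Spen cannot be read from such wide intervals. By the last base, 21 of 81 adenosines in DRACT were listed (25.9%, Wilson interval 17.6–36.4%; 9.39% in all coding genes with a site), 10 of 99 in DRACA (10.1%, 5.58–17.6%; 3.09%) and 1 of 91 in DRACC (1.1%, 0.194–5.97%; 1.81%). In genes with 15 or more sites the 3 shares were 24%, 8.51% and 5.34%, all inside the Spen intervals. The lone DRACC site is an AGACC in the 3′ UTR with a score of 0.725. None of 18 GGACC adenosines was listed, which allows a share of up to 16.7%; the share was 5.9% in all coding genes with a site and 15.8% in those with 15 or more. By median score, GAACT stood at 0.85 (n = 4), AGACT at 0.767 (n = 6), GGACA at 0.714 (n = 7) and GGACT at 0.708 (n = 6), with overlapping ranges.

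Beyond the pentamer, the base 4 nt upstream of the adenosine was A at 18 of 32 listed DRACH adenosines (56.2%, Wilson interval 39.3–71.8%) and at 68 of 238 that were not listed (28.6%, Wilson interval 23.2–34.6%). Over all coding genes with a site these shares were 39.4% and 27.5%. The 2 Spen intervals did not overlap, but this position was picked after the bases had been seen, and it lies within the sequence that the model reads. The GC content of the 21-nt windows was the same around listed and unlisted adenosines, 54.0% each. No pair of the 37 sites, exonic or intronic, shared an identical window, and the closest pair matched at 15 of 21 bases.

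In the CDS, sites were found in every reading frame. At codon positions 1, 2 and 3, 7 of 80, 11 of 107 and 6 of 50 DRACH adenosines were listed (8.75%, 10.3% and 12%), against 4.11%, 4.57% and 5.52% in all coding genes with a site and 10.1%, 11.7% and 14.9% in those with 15 or more. The Wilson intervals of the 3 Spen shares overlapped (4.30–17.0%, 5.84–17.5% and 5.62–23.8%), and each held the value of the genes with 15 or more sites.

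The median distance from 1 exonic site to the next was 135 nt (quartiles 48 and 407 nt, range 4 to 3115 nt). Of the 34 exonic sites, 25 (73.5%) had another within 100 nt. The median of this share over the 88 genes with 15 or more sites was 73.8%, and 47 of them had a higher one, so the share of Spen is no result beyond its many sites. In Spen, 4 pairs of neighbours lay within 15 nt. The closest pair, 4 nt apart at codons 1780 and 1782, joined an AAACT (0.647) and a TGACT (0.769).

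The 3 intronic sites lay together in intron 2, which is 4753 nt long, at 715, 767 and 780 nt past the 5′ splice site. No exon of any of the 6 annotated Spen transcripts covers them, nor does any RefSeq exon of the same build on that strand. Their scores were 0.565, 0.839 and 0.556. The last of them is the GGACG already shown, and the other 2 are given here because they are the only DRACH sites of the gene outside its annotated exons.
Intron 2, 715 nt past the 5′ splice site, chr4:141521347-141521367, score 0.565: tgagctcaAGACTccagtagc
Intron 2, 767 nt past the 5′ splice site, chr4:141521295-141521315, score 0.839: cgctgaggGAACTttagcttc
With 3 sites, no share was computed for the intron.

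Among the 4871 coding genes with a site, 4 had more exonic sites than the 34 of Spen: Ahnak (67), Plec (64), Rnf213 (43) and Mki67 (38). The median gene had 3. Spen is also long: 41 of these genes had a longer spliced transcript, and the median was 3114 nt. Per kb of spliced transcript, Spen had 2.76 sites, and 453 genes had more (median 0.925). Among the 88 genes with 15 or more sites, 47 had more sites per kb (median 2.88) and 48 a higher share of listed DRACH adenosines (median 12.3%). The median score of the 34 exonic sites, 0.716, was also in the middle, with 55 of the 88 genes higher. Spen was therefore among the genes with most sites by count and near the middle of that group by density and score.

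**Figure D3:**
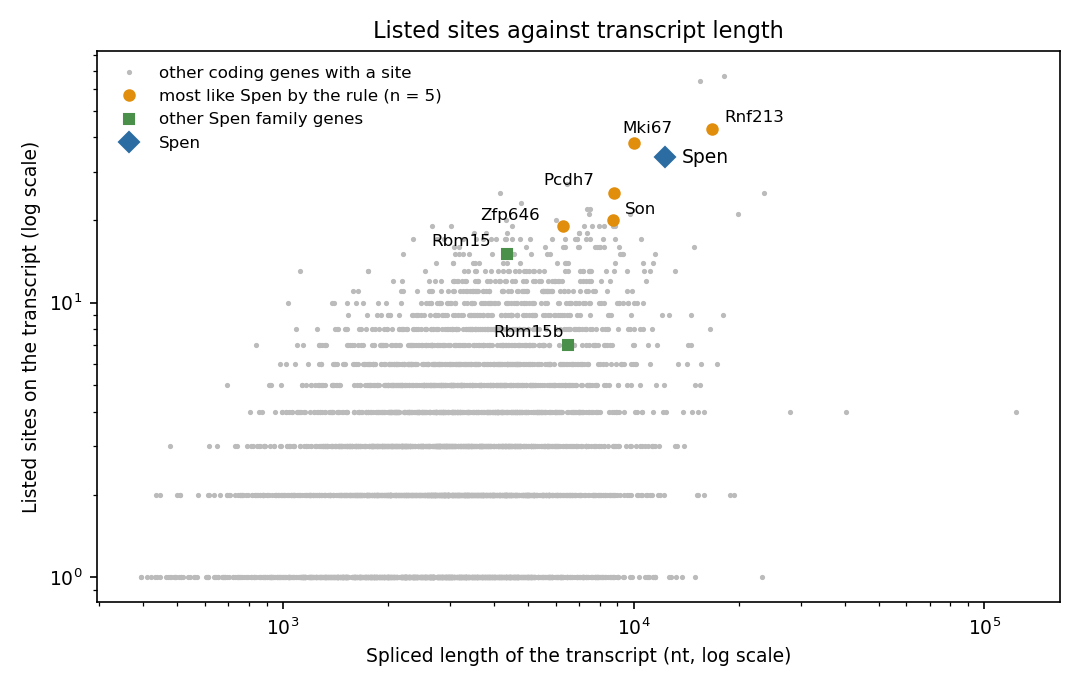
Number of listed sites on the transcript with the longest CDS against its spliced length in nt, both on log scales, for the 4871 coding genes with a site. Spen (diamond, 34 sites on 12299 nt) lies among the genes with most sites, near Mki67 (38) and Rnf213 (43), with its relatives Rbm15 (15) and Rbm15b (7) below.

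Genes of the same layout were sought by a rule: at least 15 sites, at least 50% of them in a single coding exon of at least 3000 nt that is not the last. Including Spen, 11 genes met it. The 5 others with most sites in that exon were Mki67, a marker of proliferating cells (29 of 38 sites in exon 12), Pcdh7, a protocadherin (25 of 25 in exon 1), Rnf213, a very large ubiquitin ligase (24 of 43 in exon 28), Son, a splicing cofactor of nuclear speckles (20 of 20 in exon 3), and Zfp646, a zinc finger protein (17 of 19 in exon 2). Their shares of listed DRACH adenosines were 11%, 11.7%, 9.18%, 10.3% and 12.9%, next to 11.8% for Spen. Of the 11 long exons, that of Spen is the longest. After its last site, it ran on for 2059 nt (25.7% of the exon). In the 10 other genes this distance ran from 71 nt in Rai1 (1.3%) to 1207 nt in Ankrd11 (18.5%), so Spen lay beyond all of them at this end. An empty end was not particular to Spen. At the 5′ end, the first site lay 84 nt into the exon in Spen. In the other genes it lay between 67 nt in Ankrd11 and 1804 nt in Rai1.

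**Figure D4:**
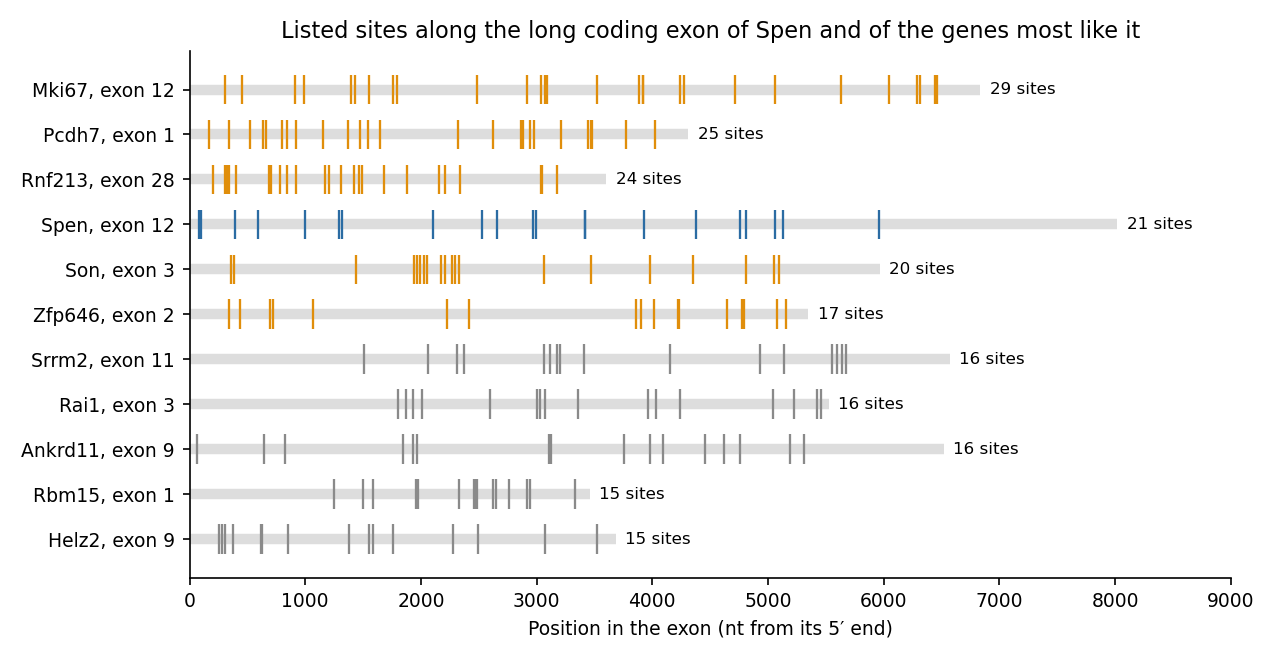
Position of each listed site (vertical line) along the long coding exon of the 11 genes that met the rule, in nt from the 5′ end of the exon; the grey bar is the whole exon. The 21 sites of Spen end at 5961 of 8020 nt, while the last site of the other genes lies 71 to 1207 nt before the end of the exon.

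Both relatives of Spen carried sites as well. Rbm15 had 15, all in its first exon of 3459 nt, with 16.1% of DRACH adenosines listed and a median score of 0.737. Rbm15b, a single-exon gene, had 7 (5.47% and 0.522). Rbm15 had its last CDS site 146 nt before the stop codon and Rbm15b 128 nt. Their CDS, 2889 and 2664 nt long, are shorter than the 3044 nt of Spen, so these distances cannot be compared with that of Spen.

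In the corepressor complex recruited by Spen, the corepressor Ncor1 had 5 sites. The deacetylase Hdac3 had 2 and the adaptor Tbl1x 1, while Tbl1xr1 and Gps2 had 0, beside 22.3% of all coding genes with a site. Of 12 genes of the nuclear Notch pathway, 6 had sites, 36 in all, where 22.3% of all coding genes have a site. The receptor Notch2 had 17 and the coactivator Ep300 11, and Maml1, Maml3, Ctbp1 and Ctbp2 had 2 each. Rbpj, which brings Spen to Notch targets, had 0, as did Notch1, Maml2, Crebbp, Hes1 and Hey1. Of 13 genes of the NuRD complex, a chromatin remodeller and deacetylase, 8 had sites, 23 in all, beside the same 22.3% of all coding genes, led by Gatad2a (7), Mbd3 (5) and Chd4 (3). With 34 exonic sites, Spen had more than each of these corepressor, Notch and NuRD genes. The list does not measure RNA, so these counts do not rank the genes by methylation. Of 10 macrophage genes, 6 carried sites, beside 22.3% of all coding genes, expressed or not. Among them were the lineage factor Spi1 (6), the receptors Csf1r (8) and Cd14 (11) and lysozyme Lyz2 (2). This share is no check of the cell label, because 8 of the 13 NuRD genes and 6 of the 12 Notch genes carried sites too. Adgre1, Cd68, Itgam and Mertk had 0, and the list gives no expression to judge them by.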

How the data were processed

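Poly(A)+ RNA of untreated RAW264.7 cells (3 replicates, 1 group) was profiled by miCLIP2. Per the study's methods and the labels, the authors mapped reads to GRCm38 (STAR 2.7.3a), collapsed duplicates by their molecular identifiers (UMI-tools 1.0.0), separated C-to-T reads, called peaks per replicate, required a peak in 2 replicates or more, and scored peaks at A with m6Aboost. SAMtools 1.9 and bedtools 2.27.1 are also named in the submitters' processing notes. The deposited list gives 1 score per site, pooled over replicates, and no counts, so depth is unknown here.

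Starts were read as 0-based: all 19301 sites then fell on A. Positions are 1-based. Sites were placed on GENCODE M21 (the authors used a later release of the same build), on each gene's transcript with the longest CDS. A junction distance is the number of bases between the adenosine and the spliced end of its exon. The background was every DRACH adenosine of coding genes with a site, each position counted once. Shares have 95% Wilson intervals. Placement was checked against 1000 GENCODE transcript sequences, of which 1000 matched, and 20000 planted positions, of which 20000 were recovered. No test was run. Python 3.11.15, NumPy 2.4.6, SciPy 1.17.1, pysam 0.24.0 and matplotlib 3.10.9 were used.

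The gene, lists and rules were chosen with earlier results of these data known. 1 gene of the lists is not reported here. Named genes were the fixed lists (Spen family, NCoR complex, nuclear Notch pathway, NuRD, macrophage markers) and the 5 genes most like Spen in site layout. Genes with more sites or longer empty stretches than Spen, the stretch borders, the flanking base and the unlisted motifs were picked after seeing values. The alternatives tried raised the lowest score to 0.7 or 0.9, merged sites up to 5 nt apart, or used other Spen transcripts, exonic sites only, the RRACH motif (R is A or G), a 1-based start, windows of 50 and 200 nt and, added after seeing the data, a background of genes with 15 or more sites, also for the share of sites with a neighbour.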

Additional observations from a re-analysis of the deposited data

How the results depend on the processing

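Most of the Spen results moved with the minimum score, which removes sites by construction. At a minimum score of 0.7, Spen kept 23 sites, 100% of them at DRACH, 1.79 sites per kb and 8.12% of exonic DRACH adenosines listed, and 54.5% of exonic sites had another within 100 nt. The share of sites in exon 12 (63.6%) and in the CDS (72.7%) stayed inside the main intervals. The share near a junction fell from 14.7% (5 of 34 sites) to 9.09% (2 of 22), also inside its interval. At 0.9 only 1 site was left, in exon 2 at DRACH: 100% at DRACH, a median score of 0.935, 0% in exon 12, 100% in the CDS, 0.369% of DRACH adenosines listed, 0% near a junction, 0.0813 sites per kb and 0% with a neighbour. Shares at this minimum rest on 1 site and say nothing of stability. With the start read as 1-based, 0% of the 37 positions sat at DRACH. With a window of 50 nt, 5.88% of sites were near a junction and 47.1% had a neighbour, and with 200 nt 20.6% and 79.4%. Collapsing sites within 5 nt left 36 sites and 33 on the transcript, and the alternative transcripts, exonic sites only and the RRACH motif kept each value they could give inside its main interval or within 1.5 times. The added background is given beside the shares of DRACH adenosines by region, junction, pentamer and codon position, and was not computed for the flanking base. No paired analysis was possible because replicates were pooled before deposit, and for the same reason none could be left out. Read coverage is not in the list, and its part in any share of 0 or difference between sections was not tested.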
